A study of Mus musculus with 14 samples.

Results

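Serpins are a family of proteins that mostly trap serine proteases. A protease that cuts the exposed reactive loop of a serpin becomes covalently held in a folded-up complex and is cleared. Secreted members of clade A are made by hepatocytes in large amounts, clade B members stay mainly inside cells and guard against the cell's own or released granule proteases, and some relatives no longer inhibit anything and carry hormones or fold collagen instead. The inhibitors of clotting, plasmin and complement Serpinc1, Serpind1, Serpinf2 and Serping1, and also Serpina12, were set aside, and every other gene whose symbol begins with Serpin was followed through liver regeneration. The rule took the brightest single-symbol probe set of each gene, the one with the highest mean intensity over the 14 arrays. It gave 25 genes of the 12393 genes with a single-symbol probe set. The name of the group is only partly met, since Serpina10, the protein Z-dependent inhibitor of coagulation factors, and Serpina5, the protein C inhibitor, are among the 25.

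Biotin-labelled total RNA of mouse liver was read on 1-colour arrays. The 7 groups of 2 arrays were liver at 4, 8, 12, 36, 48 and 72 h after partial hepatectomy, an operation that removes part of the liver and lets the rest regrow, and normal liver. Each extraction used the livers of 4 to 6 mice together. Whether a group's pair of arrays stands for 1 or 2 such pools is not in the labels, so that p-values reflect the scatter of these arrays, which may be technical. No sham-operated group is among the 7, so that effects of the operation and of regrowth cannot be told apart, and strain, sex and age are not given in the labels.

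Values were deposited as linear intensities, and the mean of each array without its lowest and highest 2% lay between 500.2 and 500.3. Medians of the arrays ranged from 127.8 to 233.1, and both arrays of a group correlated at 0.938 to 0.97 over probe sets on the log2 scale. On 4 arrays, replicate 2 at 8, 12, 36 and 72 h, the ratio of the 5′ to the 3′ probe set of the pyruvate carboxylase control was 0.0909 to 0.137, against 0.305 to 0.584 on the other 10. Results are therefore given with and without these 4. Leaving them out keeps 1 array at each of 8, 12, 36 and 72 h and fewer arrays for the estimate of the spread. Fewer of all probe sets passed in that fit at every time. Where a call is lost in it, also at 48 h, control ratio and loss of arrays cannot be told apart as the reason. The tissue label was met by hepatocyte markers: all 9 measured genes of a list with albumin and apolipoproteins were tested, and their summed intensity was 208310 to 436152 on the 14 arrays. Transcripts of pancreatic acinar cells and skeletal muscle were also found, at 4 and 8 h above all. Of 11 acinar genes 8 rose at 4 h and 11 at 8 h, and of 9 tested muscle genes 9 rose at 4 h and 8 at 8 h. Of all tested probe sets 1.6% rose at 4 h and 4.86% at 8 h. In what follows, a change is the difference of log2(intensity + 56.6) between group means in a limma fit to all 14 arrays, and a gene rose or fell where its p, adjusted by Benjamini-Hochberg over all 13580 tested probe sets, was under 0.05.

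Of the 25 serpins, 14 had a mean intensity of at least 128.7 and were tested, and 11 lay below it. Serpina3n rose at 4, 8 and 12 h, Serpini2 rose at 8 h, Serpina6 fell at 12 and 36 h, Serpinf1 fell at 36 h, and Serpinb8 rose at 48 and 72 h. Thus 5 of the 14 passed at 1 or more times, where 17.9% of all tested probe sets did, and 4 passed the moderated F test over all 6 times (Serpina3n, Serpinb6a, Serpinb8 and Serpini2), against 13.1% of all tested probe sets. Fewer cells of a type and less RNA per cell cannot be told apart in such bulk samples, here or below.

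Time by time, the counts stayed small. At 4 h 1 serpin rose and 0 fell in limma (1 had an unadjusted p under 0.05), where 1.6% of all tested probe sets rose and 0.825% fell (2.42% together). At 8 h 2 serpins rose and 0 fell (5 unadjusted), with 4.86% of all probe sets rising and 4.72% falling (9.58% together). At 12 h 1 serpin rose and 1 fell, beside 5.97% and 6.21% of all probe sets (12.2% together). At 36 h 0 rose and 2 fell (6 unadjusted), beside 2.28% and 1.88% (4.16% together). At 48 h 1 rose and 0 fell (5 unadjusted), beside 1.63% and 0.685% (2.32% together). The count at 72 h was again 1 and 0 (4 unadjusted), beside 1.62% and 0.862% (2.48% together). The early times (4, 8 and 12 h) minus the late times (36, 48 and 72 h), a contrast without normal liver, called 2 serpins as higher early and 1 as lower early, beside 5.92% and 9.87% of all probe sets (15.8% together). The median change of the 14 members against normal liver lay between -0.09 at 12 h and 0.25 at 72 h, and that of all tested probe sets between 0 and 0.12. The members were thus split in direction at every time, as 6 to 9 of the 14 lay above 0.

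**Figure D1:**
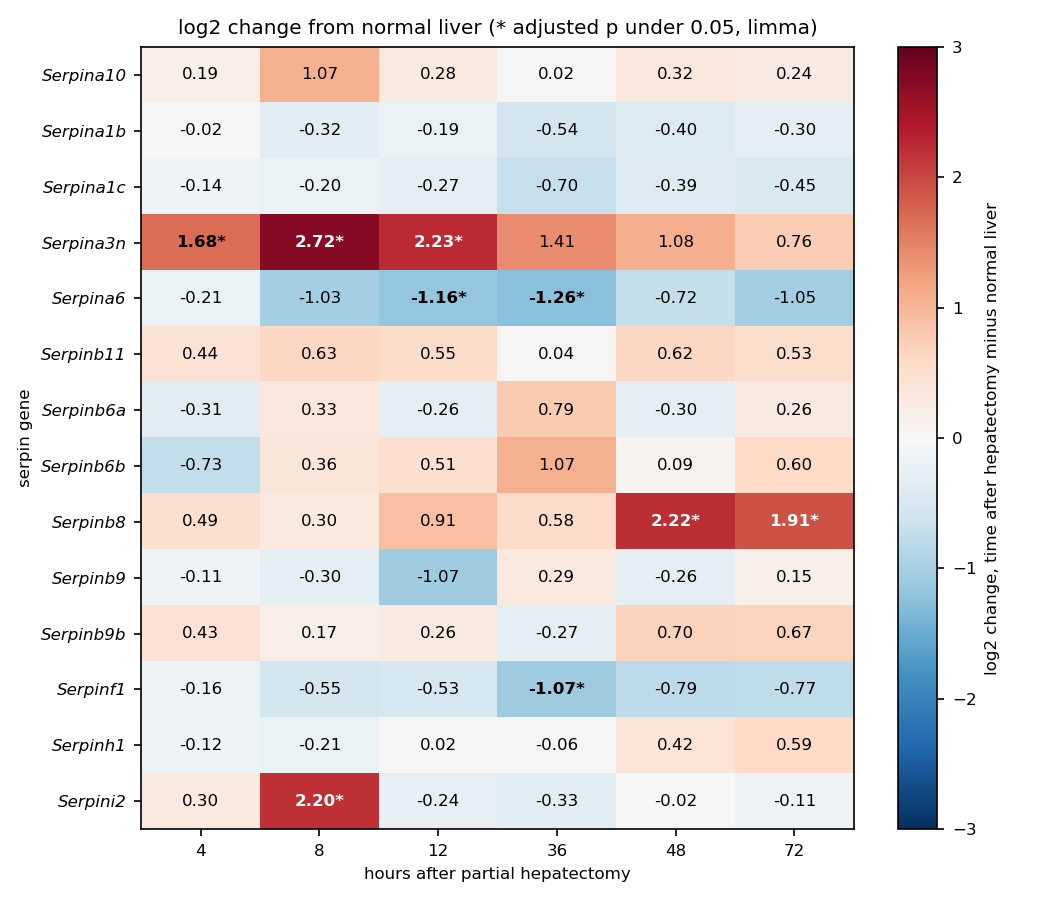
Change in log2(intensity + 56.6) from normal liver for the 14 tested serpins (rows) at 6 times after partial hepatectomy (columns), 2 arrays a group; an asterisk marks an adjusted p under 0.05 in limma. Serpina3n is called at 4, 8 and 12 h, Serpini2 at 8 h, Serpina6 at 12 and 36 h, Serpinf1 at 36 h and Serpinb8 at 48 and 72 h.

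Among the secreted clade A serpins, Serpina3n stood out. It is an acute-phase serpin of the antichymotrypsin group that inhibits granzyme B and other leukocyte proteases. Its probe set 1419100_at read 3110 and 4107 in normal liver, 9788 and 13764 at 4 h, 26562 and 21345 at 8 h, 28062 and 10333 at 12 h, 10420 and 8802 at 36 h, 6353 and 9118 at 48 h, and 6321 and 5885 at 72 h. All 12 arrays after hepatectomy were above both normal arrays. The highest were those of 8 h and 1 array of 12 h.

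Mean intensity of Serpina3n was 11776 ± 2811 at 4 h, 23954 ± 3689 at 8 h and 19198 ± 12537 at 12 h, against 3608 ± 705 in normal liver (SD, n = 2 each). The log2 change was 1.68 (SE 0.39, adjusted p = 0.0457) at 4 h, 2.72 (adjusted p = 0.00136) at 8 h and 2.23 (adjusted p = 0.00383) at 12 h in limma. It was 1.41 (adjusted p = 0.0664) at 36 h, 1.08 (adjusted p = 0.232) at 48 h and 0.76 (adjusted p = 0.39) at 72 h, which did not pass. The early arrays averaged 18309 and the late arrays 7817, a log2 difference of 1.13 (SE 0.23, limma adjusted p = 0.00527).

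Without the 4 low-ratio arrays the 3 calls of Serpina3n held, at 1.68, 2.87 and 2.95 for 4, 8 and 12 h (adjusted p = 0.0353, 0.0078 and 0.00969). At 12 h both arrays differed by more than any other pair of the gene, and the change was 1.52 without replicate 1 and 2.95 without replicate 2. The 4 h call is the fragile one, as 12 of the 14 fits that leave out 1 array lost it (adjusted p up to 0.349). Among marker lists, 1 of 8 tested neutrophil genes rose at 4 h, 2 at 8 h and 1 at 12 h, with sums of 2413 to 3183 over these 6 arrays and 773 and 1367 in normal liver. Of all tested probe sets 1.6%, 4.86% and 5.97% rose at these times. The summed muscle genes gave 17849 and 16284 at 4 h and 661 and 440 in normal liver. The part of these cells and of the acinar transcripts in the rise of Serpina3n was not tested.

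The acute-phase list of regulators, which holds receptors, STAT3 feedback genes and C/EBP factors that drive such serpins, had 5 of 12 genes that rose at 4 h, 6 that rose at 8 and again at 12 h, and 4 that rose at 36 h, with none rising at 48 and 72 h (2 had an unadjusted p under 0.05 at each). In the same list 1 gene fell at each of 12, 36, 48 and 72 h. Of all tested probe sets 1.6%, 4.86%, 5.97% and 2.28% rose at 4, 8, 12 and 36 h. At 12, 36, 48 and 72 h 6.21%, 1.88%, 0.685% and 0.862% fell. The median change of the list was 1.04 at 4 h and -0.04 at 72 h, where all tested probe sets had 0 and 0.11.

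Within that list, Socs3, the feedback inhibitor of STAT3 signalling, averaged 3229 ± 218 at 4 h and 227 ± 29.8 in normal liver (log2 change 3.54, adjusted p = 0.00022). Il1r1, the receptor of interleukin-1, averaged 4765 ± 157 at 8 h and 275 ± 25.1 in normal liver (log2 change 3.86, adjusted p = 5.89e-06). Cebpd, a transcription factor of acute-phase genes, averaged 1331 ± 336 at 12 h and 198 ± 41.2 in normal liver (log2 change 2.44, adjusted p = 0.000271). Not every gene of the list moved this way. Lifr, the receptor of leukemia inhibitory factor, fell by 2.13 at 36 h (adjusted p = 0.002), to 984 ± 194 against 4465 ± 418 in normal liver.

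The promoter of Serpina3n is shown because this gene rose at 3 times and its calls at 8 and 12 h held under every alternative tried. It is RefSeq sequence of GRCm38.p6, chr12:104406458-104406757, plus strand, from 250 bases before the transcription start to 50 after. Capitals mark the only match among 25 promoters of 22 members to GNACA and TGTNC 3 bases apart, the paired half-sites of the glucocorticoid receptor, which ends 65 bases before the start.
Serpina3n: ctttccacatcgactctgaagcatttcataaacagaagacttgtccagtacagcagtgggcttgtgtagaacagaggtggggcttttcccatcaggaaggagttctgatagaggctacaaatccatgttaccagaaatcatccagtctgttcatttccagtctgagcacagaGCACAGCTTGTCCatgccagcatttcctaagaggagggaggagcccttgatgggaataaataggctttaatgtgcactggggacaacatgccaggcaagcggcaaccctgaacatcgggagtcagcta
These letters, read on both strands, are in 0.475% of the 32841 promoters of this length. The STAT letters TTCNNNGAA are in 8.3% of all promoters and in 4 of the 25, those of Serpinb2 (both), Serpinb6a and Serpinb9c. Both promoters of Serpinb2 overlap and hold the same match. For NF-kB only GGGA and CCC 3 bases apart were searched, and other forms of the site were not. This form is in 5.55% of all promoters and in 0 of the 25. A match is a string of letters in this window and shows no binding.

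Serpina6 is corticosteroid-binding globulin, the carrier of corticosterone in plasma, which has no inhibitory role. Probe set 1448506_at read 4921 and 6993 in normal liver, 5036 and 5119 at 4 h, 2964 and 2736 at 8 h, 1978 and 3401 at 12 h, 2746 and 2128 at 36 h, 2905 and 4296 at 48 h, and 2319 and 3385 at 72 h. From 8 h on all 10 arrays lay below both normal arrays.

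Mean intensity of Serpina6 fell to 2689 ± 1006 at 12 h and 2437 ± 437 at 36 h, against 5957 ± 1465 in normal liver. The log2 change was -1.16 (SE 0.32, limma adjusted p = 0.0332) at 12 h and -1.26 (adjusted p = 0.0459) at 36 h. At 8, 48 and 72 h it was -1.03 (adjusted p = 0.0607), -0.72 (adjusted p = 0.329) and -1.05 (adjusted p = 0.122). Without the 4 low-ratio arrays the change was -1.54 at 12 h (adjusted p = 0.0602) and -1.08 at 36 h (adjusted p = 0.335), so that neither passed. The early minus late difference was 0.21 (95% interval -0.18 to 0.61, adjusted p = 0.499). Of 12 markers of Kupffer cells, the macrophages of the liver, 5 fell at 12 h, where 6.21% of all tested probe sets fell. The summed intensity of these markers was 8652 and 6197 at 12 h and 14136 and 15550 in normal liver. Their part in the fall of Serpina6 was not tested.

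Of 9 genes that handle steroid or thyroid hormones or answer to them, 1 fell at 4 h, 2 at 8 h, 3 at each of 12, 36 and 48 h and 2 at 72 h, and 1 rose at each of 8, 12 and 36 h. Over the 6 times 0.685% (48 h) to 6.21% (12 h) of all tested probe sets fell. At 8, 12 and 36 h 4.86%, 5.97% and 2.28% rose. Hsd11b1, which regenerates active glucocorticoid, averaged 6805 ± 46.4 at 36 h and 21337 ± 3024 in normal liver (log2 change -1.63, adjusted p = 0.0073). Thrsp, a thyroid-hormone-responsive gene of fat synthesis, averaged 3380 ± 400 at 48 h and 14675 ± 1281 in normal liver (log2 change -2.1, adjusted p = 0.0159). Both of the list's named glucocorticoid targets passed at 8 h but in opposite directions. Fkbp5 rose by 1.73 (adjusted p = 0.00483) to 2442 ± 339, against 700 ± 119 in normal liver. Tsc22d3 fell by 1.65 (adjusted p = 0.0198) to 291 ± 140, against 1013 ± 330 in normal liver.

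The other clade A members gave no call. Serpina1b and Serpina1c encode mouse alpha-1-antitrypsins, the main plasma brake on neutrophil elastase, and their near-identical sequences mean that a probe set may read several copies. Serpina1b (1418282_x_at) read 26868 to 54082 on the 14 arrays and Serpina1c (1448680_at) 26248 to 54687. Their changes lay between -0.54 and -0.02 and between -0.7 and -0.14, the lowest of both at 36 h (adjusted p = 0.338 and 0.236), and a second Serpina1b probe set had -0.59 there (adjusted p = 0.212). All 14 arrays of both were above background.

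Serpina10 (1424758_s_at) read 5838 and 6509 in normal liver, 7380 and 6688 at 4 h, 13109 and 12890 at 8 h, 13618 and 4127 at 12 h, and 6218 to 7928 on the arrays of 36 to 72 h. Both 8 h arrays were above every normal array, while the 12 h pair lay on opposite sides of normal liver. The change at 8 h was 1.07 (limma adjusted p = 0.114) and did not pass. It passed where either 12 h array was left out (adjusted p = 0.00398 for each), and at 12 h the change was 0.28 (adjusted p = 0.659) with both arrays and 1.14 (adjusted p = 0.0114) without replicate 2, one of the 4 low-ratio arrays. All 7 clade A members lie on chromosome 12, so that neighbours of one cluster included 1 that rose, 1 that fell and 3 tested genes without a call.

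**Figure D2:**
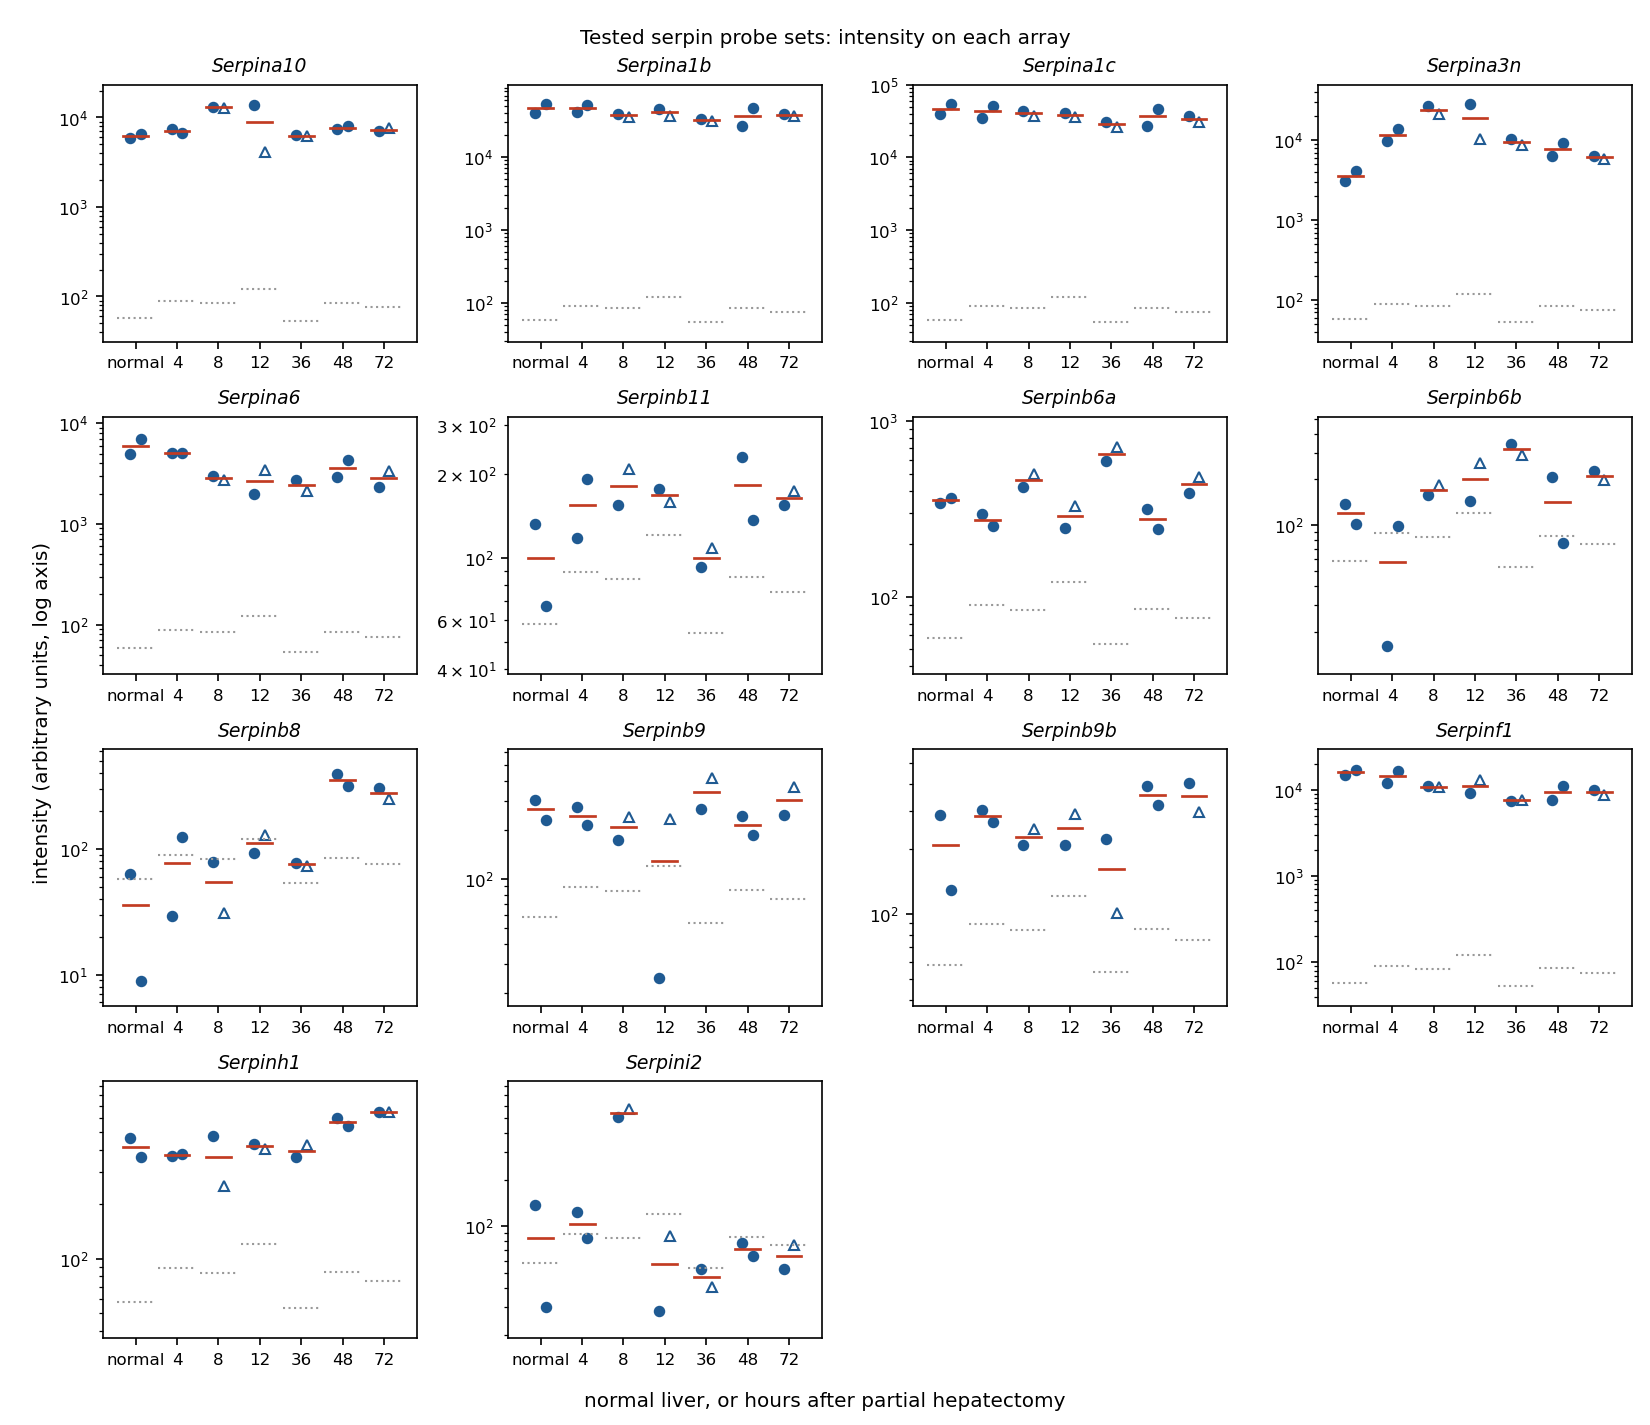
Intensity (log axis) of the 14 tested serpins on each of 14 arrays, in normal liver and 4 to 72 h after partial hepatectomy; the red line is the mean of 2 arrays, the dotted line the mean background, and open triangles are the 4 arrays with a low control ratio. Serpina3n lies above normal liver on all 12 later arrays, Serpina6 lies below from 8 h on, and Serpinb8 is highest at 48 and 72 h.

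Serpinf1 is pigment epithelium-derived factor, a secreted protein that restrains blood vessel growth and does not inhibit proteases. Probe set 1416168_at read 14773 and 17200 in normal liver, 12172 and 16644 at 4 h, 10970 and 10779 at 8 h, 9200 and 13175 at 12 h, 7356 and 7736 at 36 h, 7564 and 11172 at 48 h, and 9895 and 8796 at 72 h. From 8 h on all 10 arrays were below both normal arrays, and those of 36 h were the lowest group.

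Serpinf1 averaged 7546 ± 268 at 36 h and 15987 ± 1716 in normal liver, a log2 change of -1.07 (SE 0.26, limma adjusted p = 0.0429). Without the 4 low-ratio arrays it was -1.11 and did not pass (adjusted p = 0.319), nor did it pass on all 14 arrays with the low control ratio as a block (-1.12, adjusted p = 0.0557). At the other times the change lay between -0.79 and -0.16 with no call. Another probe set of the gene gave the same direction with more calls. It read 4116 and 3212 at 36 h and 7833 and 11028 in normal liver, and it fell by 0.93 at 12 h (adjusted p = 0.0284), by 1.34 at 36 h (adjusted p = 0.00942) and by 1.15 at 72 h (adjusted p = 0.0282). At 36 h 0 of 9 tested endothelial markers passed in limma (2 unadjusted). Of the 9 hepatocyte markers 0 passed then either (6 unadjusted), and their summed intensity was 246869 and 247979 at 36 h and 332748 and 417197 in normal liver, whose part in the falls of Serpinf1 and Serpina6 was not tested.

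Clade B serpins act inside cells, and 6 of the 14 tested members belong to it. Serpinb8, whose human protein inhibits the proprotein convertase furin, was the only one called at single times. Probe set 1422776_at read 63.3 and 8.8 in normal liver, 29.2 and 125 at 4 h, 78.3 and 31 at 8 h, 92.3 and 130 at 12 h, 77.4 and 73.5 at 36 h, 398 and 316 at 48 h, and 306 and 248 at 72 h. The 4 arrays of 48 and 72 h were higher than each of the other 10. No normal array was above background, taken on each array as the 95th percentile of 27 Bacillus subtilis control probe sets (43.56 to 138.3).

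Against normal liver, Serpinb8 was at least 6.31-fold higher 48 h after the operation and at least 4.9-fold higher 72 h after it, where the bound sets the later mean (357 ± 57.9 and 277 ± 41.4) against the background. The measured mean in normal liver was 36 ± 38.5. The fitted log2 change was 2.22 (SE 0.38, limma adjusted p = 0.00734) at 48 h and 1.91 (adjusted p = 0.0176) at 72 h, and 0.3 to 0.91 at the earlier times with no call. These sizes depend on the pseudocount: with it divided by 4 and multiplied by 4 the change was 3.13 and 1.16 at 48 h and 2.78 and 0.94 at 72 h, and each of these passed. Early arrays averaged 80.9 and late arrays 236, a log2 difference of -1 (SE 0.22, adjusted p = 0.00831). Of the early arrays 2 of 6 were above background, and of the late arrays 6 of 6. With the pseudocount divided by 4 and multiplied by 4 this difference was -1.32 and -0.55, and both passed. Without the 4 low-ratio arrays the changes were 2.22 at 48 h (adjusted p = 0.062) and 2.03 at 72 h (adjusted p = 0.232), and the early minus late difference was -1 (adjusted p = 0.126). The adjusted p without the second normal array was 0.103 at 48 h and 0.202 at 72 h.

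None of the members of 8 marker lists passed at 48 or 72 h in limma, and 0 to 3 of each list had an unadjusted p under 0.05. Of all tested probe sets only 2.32% and 2.48% passed at 48 and 72 h. At those times neutrophil markers had 2 of 8 with an unadjusted p under 0.05 and a median change of 0.69 and 0.73, and their summed intensity was 1366 to 2524 at 48 and 72 h against 773 and 1367 in normal liver. Prtn3, a granule protease of neutrophils and myeloid precursors that is outside these lists, did rise at 72 h. It averaged 850 ± 82.1 then and 16.6 ± 0.495 in normal liver (limma adjusted p = 2.24e-05). The part of such cells in the rise of Serpinb8 was not tested.

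The promoter of Serpinb8 is shown because this gene rose late, when Serpina3n no longer passed. It is chr1:107589756-107590055 of GRCm38.p6, plus strand. Capitals mark a pair of matches to the AP-1 letters TGANTCA, which end 16 bases before and 20 bases after the start.
Serpinb8: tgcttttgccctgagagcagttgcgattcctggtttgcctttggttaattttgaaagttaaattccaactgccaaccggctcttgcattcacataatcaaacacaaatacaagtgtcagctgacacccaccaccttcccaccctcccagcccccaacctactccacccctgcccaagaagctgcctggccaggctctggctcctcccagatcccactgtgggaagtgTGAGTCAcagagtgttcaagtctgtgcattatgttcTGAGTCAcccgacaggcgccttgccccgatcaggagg
The AP-1 letters take any middle base, which is looser than the AP-1 site itself, and are in 7.81% of all 32841 promoters. They are in 8 of the 25 promoters of members, among them those of Serpina1b, Serpina1c and Serpinb11, which gave no call. The matches of Serpinb8 read TGAGTCA and those of Serpinb11 TGATTCA and TGAATCA. Both promoters of Serpinb2 are counted, though they overlap and hold the same match.

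Serpinb6a, an inhibitor of cathepsin G and related proteases, passed the F test (limma adjusted p = 0.0309) but no single time. Probe set 1450138_a_at read 342 and 364 in normal liver, 297 and 253 at 4 h, 422 and 498 at 8 h, 246 and 329 at 12 h, 592 and 716 at 36 h, 315 and 242 at 48 h, and 391 and 482 at 72 h. The 36 h pair was the highest of the 7 groups, and 4, 12 and 48 h lay below normal liver on every array. The change at 36 h was 0.79 (SE 0.23, adjusted p = 0.0782), and without the 4 low-ratio arrays the F test gave an adjusted p of 0.39. The F test also missed the threshold in 7 of the 14 fits that leave out 1 array (adjusted p = 0.0554 to 0.149).

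The remaining tested clade B genes gave no call. Serpinb6b, a close relative of Serpinb6a, was highest at 36 h with 341 and 290, against 139 and 102 in normal liver (change 1.07, adjusted p = 0.159). Serpinb9, the granzyme B inhibitor that shields cytotoxic cells and their targets, read 24.8 to 420, with its lowest value on replicate 1 at 12 h, where replicate 2 read 233. Serpinb9b, its relative, read 101 to 402, and Serpinb11 read 67.2 to 229. Each had arrays in common range with normal liver at 1 or more times.

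Serpinh1, also called HSP47, is the chaperone of collagen in the endoplasmic reticulum and no protease inhibitor. Probe set 1456733_x_at read 465 and 364 in normal liver, 370 and 380 at 4 h, 474 and 254 at 8 h, 433 and 402 at 12 h, 364 and 424 at 36 h, 597 and 544 at 48 h, and 648 and 649 at 72 h. Both late pairs were above normal liver, yet the change was 0.42 (adjusted p = 0.486) at 48 h and 0.59 (adjusted p = 0.303) at 72 h. Another probe set of the gene had 0.69 (adjusted p = 0.176) and 0.67 (adjusted p = 0.175) at these times. The early minus late difference was -0.42 and missed the threshold (adjusted p = 0.0764).

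The genes that Serpinh1 works with were followed from a list. Of 19 tested collagens and collagen-modifying genes 1 rose at each of 4, 8, 12 and 36 h, 1 fell at 8 h and 1 at 12 h, and 0 passed in limma at 48 and 72 h (2 and 3 unadjusted). Of all tested probe sets 2.42%, 9.58%, 12.2%, 4.16%, 2.32% and 2.48% passed at 4, 8, 12, 36, 48 and 72 h. The counts of the list are near these shares. Col4a1, a chain of basement membrane collagen, averaged 1869 ± 78 at 8 h and 582 ± 4.03 in normal liver (log2 change 1.59, adjusted p = 0.00194). Col3a1, a fibrillar collagen, averaged 419 ± 40.5 at 12 h and 1251 ± 87.6 in normal liver (log2 change -1.46, adjusted p = 0.00129). Col18a1, made by hepatocytes, fell by 0.99 at 8 h (adjusted p = 0.0356).

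Serpini2 is known from the exocrine pancreas. Its probe set 1425152_s_at read 138 and 30.1 in normal liver, 124 and 84.2 at 4 h, 505 and 572 at 8 h, 28.5 and 86 at 12 h, 52.7 and 40.7 at 36 h, 78.5 and 64.7 at 48 h, and 52.9 and 75.6 at 72 h. Only the 8 h pair stood above the rest, and 1 of 2 normal arrays was above background.

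Serpini2 averaged 539 ± 47.2 at 8 h and 83.8 ± 76 in normal liver, with a log2 change of 2.2 (SE 0.35, limma adjusted p = 0.00262). The early minus late difference was 0.91 (SE 0.2, adjusted p = 0.0103). Without the 4 low-ratio arrays these were 2.11 (adjusted p = 0.064) and 0.77 (adjusted p = 0.191), and neither passed. The change at 8 h depended on the pseudocount, being 2.75 with it divided by 4 and 1.32 with it multiplied by 4.

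The 11 pancreatic acinar genes stood highest on the same pair of arrays. Their summed intensity was 2401 and 1242 in normal liver, 40466 and 41199 at 4 h, 277300 and 254914 at 8 h, 4660 and 2186 at 12 h, 1274 and 44466 at 36 h, 3129 and 2734 at 48 h, and 2014 and 1801 at 72 h. The median change of the list at 8 h was 7.47, against 0.09 for all tested probe sets. In normal liver none of the 11 was at 0, while Cela3b, Cpa1 and Reg1 were above background on neither array. At 4 h and on replicate 2 at 36 h, with acinar sums of 40466 to 44466, Serpini2 read 124, 84.2 and 40.7, all within the span of the normal arrays (30.1 to 138). Background on these arrays was 87.93, 90.57 and 53.37, so that a small rise may go unseen there. The part of these transcripts in the Serpini2 result was not tested.

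**Figure D3:**
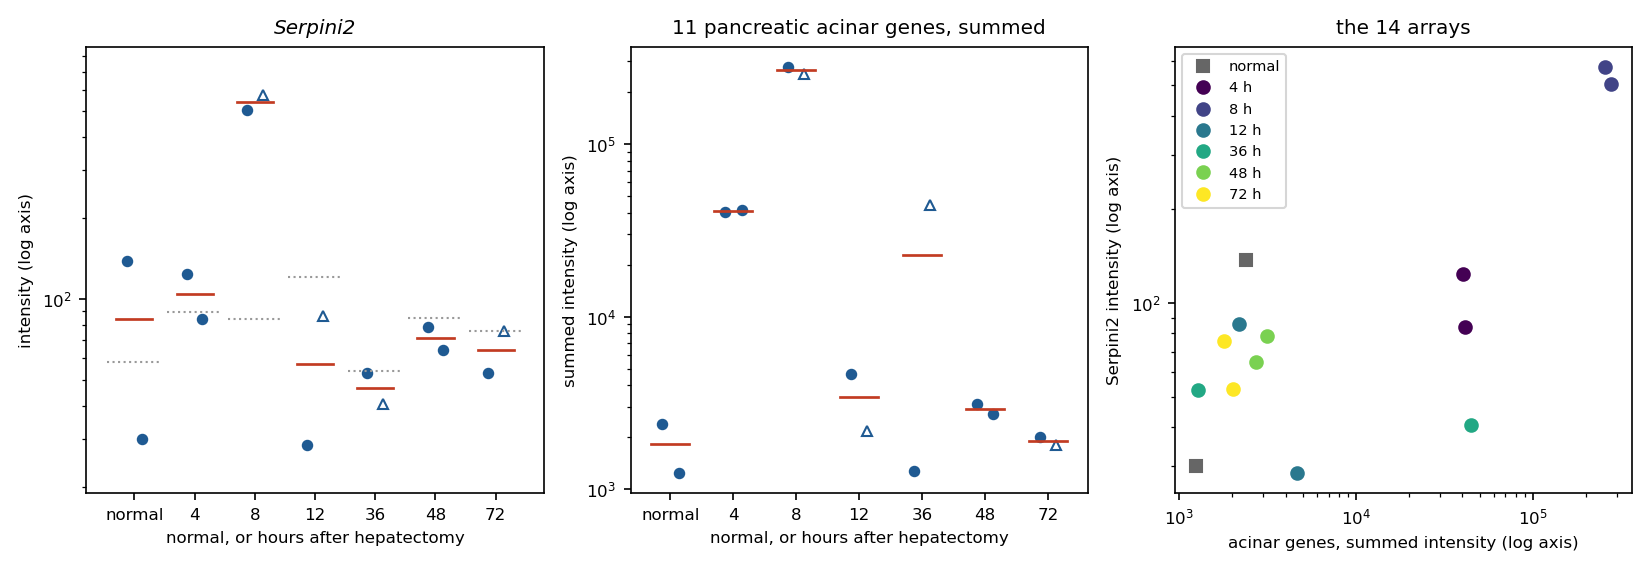
Intensity of Serpini2, summed intensity of 11 pancreatic acinar genes, and one against the other over the 14 arrays (all axes log), in normal liver and at 6 times after partial hepatectomy. Both are highest on the 2 arrays of 8 h, where Serpini2 read 505 and 572 and the acinar sum 277300 and 254914.

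Another 11 serpins were below the intensity filter and were not tested. They are Serpina3a, Serpina5, Serpinb1a, Serpinb1b, Serpinb2, Serpinb5, Serpinb6c, Serpinb7, Serpinb9c, Serpinb9g and Serpini1, and their arrays read 1.2 to 183. On no array were Serpina5, Serpinb1b (a relative of the neutrophil protease inhibitor Serpinb1a), Serpinb2 (plasminogen activator inhibitor 2) and Serpinb5 (maspin) above background. Serpini1, the neuronal inhibitor of tissue plasminogen activator, was above it on 7 arrays, Serpina3a on 8 and Serpinb6c on 10.

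Serpinb1a, an inhibitor of neutrophil elastase, cathepsin G and proteinase 3, had the clearest split of these. Its probe set 1416318_at read 6.3 to 51.5 on the 12 arrays after hepatectomy, all below background, and 166 and 97.7 in normal liver, both above it. Its level was thus at least 1.07-fold (12 h) to at least 2.37-fold (36 h) lower after hepatectomy. In a fit without the filter it fell at 8 h (limma adjusted p = 0.0473), 12 h (0.0194) and 72 h (0.0333), but its F test missed the threshold (0.0654). Its other probe set read 58.3 and 33.8 in normal liver and was below background on all 14 arrays. That probe set did not repeat the split, as it read 42 and 50.4 at 4 h. Its arrays overlapped those of normal liver at 4, 8, 36 and 72 h and lay below them at 12 and 48 h.

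Serpina3a, from the same cluster as Serpina3n, was above background on neither normal array (11.5 and 23.9) and on both arrays of 4 and of 48 h. It read 126 and 142 at 4 h, at least 2.37-fold higher than in normal liver, and 164 and 75.1 at 48 h, at least 1.98-fold higher. At each other time 1 of 2 arrays was above background. In the fit without the filter neither change passed (limma adjusted p = 0.295 at 4 h and 0.363 at 48 h).

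**Figure D4:**
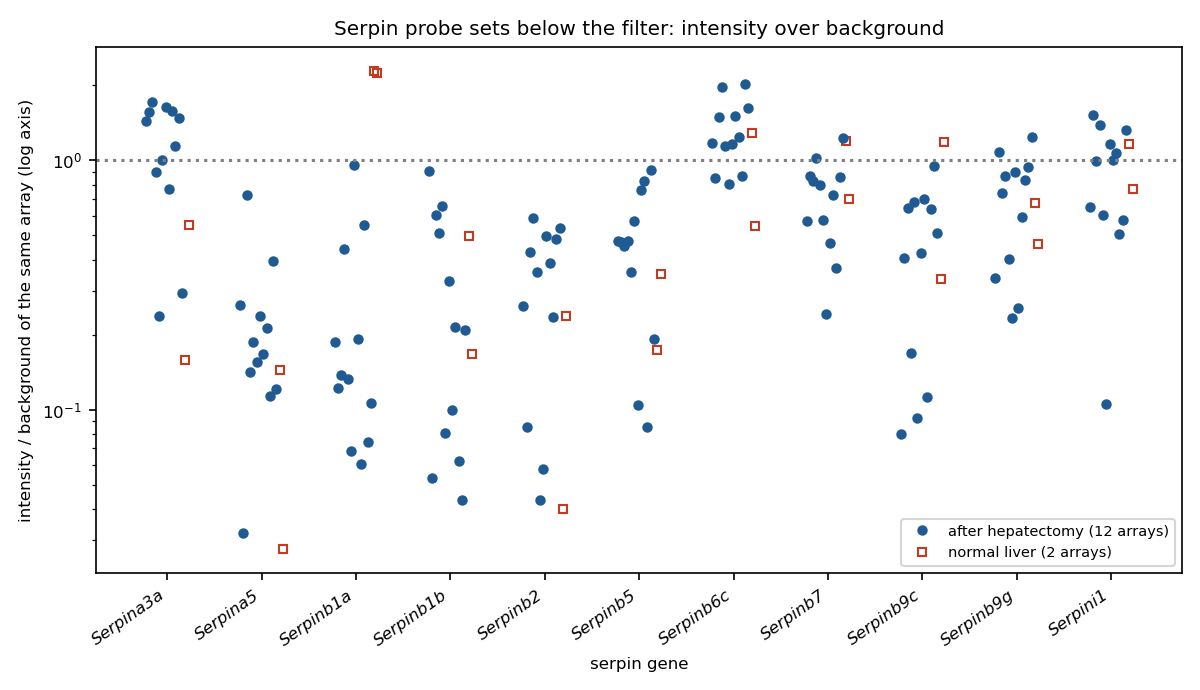
Intensity divided by the background of the same array (log axis) for the 11 serpins below the filter, on 12 arrays after hepatectomy (dots) and 2 of normal liver (open squares); the dotted line is a ratio of 1. The 12 arrays of Serpinb1a after hepatectomy lie below the line and both of its normal arrays above it.

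The proteases that serpins act on, and the inhibitors of other families, were followed from lists. Of 14 tested target proteases 0 passed at 4 h in limma (3 unadjusted), 1 rose and 3 fell at 8 h, 2 rose and 2 fell at 12 h, 0 rose and 1 fell at 36 h (7 unadjusted), and 1 rose and 1 fell at 48 and at 72 h. All tested probe sets passed at these times in 2.42%, 9.58%, 12.2%, 4.16%, 2.32% and 2.48%. Prtn3, proteinase 3 of neutrophil and myeloid precursor granules, averaged 850 ± 82.1 at 72 h and 16.6 ± 0.495 in normal liver, where it was not above background, and so was at least 15.1-fold higher (limma adjusted p = 2.24e-05). Klkb1, plasma prekallikrein, averaged 723 ± 482 at 12 h and 4371 ± 1131 in normal liver (log2 change -2.63, adjusted p = 0.00129). Casp8, the initiator caspase, rose by 1.32 at 8 h (adjusted p = 0.00254), and Hgfac, the activator of hepatocyte growth factor, fell by 1.39 at 48 h (adjusted p = 0.0107).

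Of 22 tested inhibitors from other families 2, 3, 2, 2, 1 and 2 rose at 4, 8, 12, 36, 48 and 72 h. At no time did 1 fall, and 4 to 9 had an unadjusted p under 0.05. Of all tested probe sets 1.6%, 4.86%, 5.97%, 2.28%, 1.63% and 1.62% rose at these times. Slpi, a secreted elastase inhibitor, averaged 1490 ± 226 at 8 h and 268 ± 92.7 in normal liver (log2 change 2.28, limma adjusted p = 0.00204). Timp1, a metalloprotease inhibitor, averaged 365 ± 16.4 at 72 h and 55.4 ± 6.01 in normal liver (log2 change 1.91, adjusted p = 0.000476). Timp3 rose by 1.14 at 4 h (adjusted p = 0.049).

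Among 12 partners of the plasminogen activators, 2 genes rose at 8 h, 1 gene rose at 12 h and 2 genes rose at 36 h, while 0 fell at any time (0 to 7 had an unadjusted p under 0.05). Of all tested probe sets 4.86%, 5.97% and 2.28% rose at 8, 12 and 36 h. Anxa2, which with S100a10 forms a docking site for plasminogen on the cell surface, averaged 5698 ± 1782 at 36 h and 824 ± 419 in normal liver (log2 change 2.76, limma adjusted p = 0.00305). S100a10 rose by 1.24 (adjusted p = 0.0182) and Thbs1, thrombospondin 1, by 1.11 (adjusted p = 0.0427), both at 8 h. At 48 h 0 of the 12 had even an unadjusted p under 0.05.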

How the data were processed

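The authors deposited 1 linear intensity per probe set and array; how it was summarised from the scans is not given in the sources used. Per the series' design text, GeneSpring 7.2 was used to pick genes that differed from normal liver. Of 22690 probe sets, 64 controls were left out. The 25th percentile, 56.6, was added before log2, the deposited scaling was kept, and 13580 probe sets at or above the 40th percentile of means (128.7) were tested. A 7-group model was fitted in limma 3.58.1 (R 4.3.3) with 7 residual and 5.07 prior degrees of freedom. Tests are two-sided. Only 2 arrays a group limit the precision. The script was tested on simulated data.

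Gene names came from the array annotation and all 25 matched GRCm38.p6. Values per array are given for members that passed any test, with some others added after their values were seen (Serpina10, Serpinh1, Serpinb1a and Serpina3a). Up to 4 called genes of a list are named by the largest change. The members and lists were chosen with earlier results of these data known. Alternatives covered scaling, pseudocount, filter, prior, probe set choice, blocks and left-out arrays.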

Additional observations from a re-analysis of the deposited data

Results flagged for a closer look

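The change from the early times (4, 8 and 12 h) to the late times (36, 48 and 72 h) passed for 3 serpins in limma, so that their changes from normal liver differ between early and late times. Serpina3n was higher early, by 1.13 on the log2 scale (adjusted p = 0.00527), Serpini2 by 0.91 (adjusted p = 0.0103), and Serpinb8 was higher late, with an early minus late difference of -1 (adjusted p = 0.00831). For Serpini2 only 8 h stood out (505 and 572), with 124 and 84.2 at 4 h and 28.5 and 86 at 12 h. Serpinb8 read 77.4 and 73.5 at 36 h, within the span of its early arrays (29.2 to 130). Without the 4 low-ratio arrays the difference was 0.77 for Serpini2 and -1 for Serpinb8, and neither passed.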

How the results depend on the processing

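Serpina3n at 8 and 12 h, its early minus late difference and its F test passed in all alternatives. Quantile normalization kept every call, added Serpina3n at 36 h (adjusted p = 0.0202) and shifted the median of all probe sets by up to -0.12 (48 h). Called serpins at 4 h were 0 with the pseudocount divided by 4, with no filter and with the replicate block. All probe sets gave 272, 258 and 326 calls there, against 329 in the main fit. At 36 h 0 serpins were called with the pseudocount divided by 4, with no filter and with only the 4 arrays compared. All probe sets gave 488, 452 and 152 calls there, against 565. Without the 4 low-ratio arrays serpin calls were lost too, as given by gene above, and fewer of all probe sets passed in each comparison. With only the 4 arrays compared 1 serpin passed at 12 h and 0 at 48 h. All probe sets then gave 321 and 92 calls, against 1654 and 315. At 72 h 2 serpins passed with no filter and 2 when the probe sets of a gene were averaged. Over the whole array 286 and 266 passed there, against 337. Averaging also gave 5 serpins early against late. Leaving out 1 array gave 0 to 1 at 4 h, 2 to 4 at 8 h, 1 to 4 at 12 h, 0 to 3 at 36 h, 0 to 1 at 48 h and at 72 h, 3 to 5 early against late and 2 to 7 in the F test. For all probe sets that range was 80 to 553 at 4 h, against 329 with all arrays.

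Left-out arrays moved the number of calls over all probe sets at every time, down in some fits and up in others. They also moved single genes. Serpina6 and Serpinf1 at 36 h lost their calls without any 1 array of normal liver, 4, 8, 36 or 72 h. Serpina6 at 12 h lost its call without normal replicate 2, either 4 h array or 12 h replicate 1, and the F test of Serpini2 without 8 h replicate 2 (adjusted p = 0.0575). Serpinb8 lost its call at 48 h without 48 h replicate 1 (0.0853) and at 72 h without either 72 h array (0.129 and 0.097). Serpinb9 passed at 12 h with the low control ratio as a block (-1.48, adjusted p = 0.0232), without the 4 low-ratio arrays (-1.99, 0.0212) and without 12 h replicate 2 alone (-1.99, 0.00538); the last pair of fits leaves 1 array at that time. The cause of these shifts was not tested.

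Replicate numbers were not taken as pairs in the main fit. The deviations of same-numbered arrays correlated at -0.19 to 0.53 over 21 pairs of groups, and 9 were over 0.1. A part shared by arrays of 1 replicate number is thus possible, and all 4 low-ratio arrays are replicate 2. With the replicate block 0, 3, 2, 2, 1 and 1 serpins were called at 4 to 72 h, 4 early against late and 5 in the F test. Serpina3n lost its call at 4 h there (limma adjusted p = 0.0595), and Serpina6 passed at 8 h (0.0464). Signal over background limits the 11 serpins below the filter, of which 4 were never above background.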

Other observations

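Of the probe sets with several serpin symbols, which were not members, 3 can be set beside their relatives, and none passed at any time. The probe set of Serpina1d and Serpina1a read 10789 and 7321 at 36 h and 14788 and 15416 in normal liver, a change of -0.76 (limma adjusted p = 0.169). The one shared by Serpina1e, Serpina1c and Serpina1b read 1385 and 1278 at 36 h and 2506 and 2955 in normal liver, a change of -1 (adjusted p = 0.0829). The one shared by Serpinb9h, Serpinb9g, Serpinb9e and Serpinb9f read 115 to 534 on the 14 arrays.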
